A study of Sus scrofa with 8 samples.

Results

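The proteasome is the ATP-dependent protease that degrades most ubiquitin-tagged proteins, and 40 genes of its subunits, regulators and assembly factors were measured in the left ventricles of pigs with a potassium channel gene mutation and of wild-type (WT) pigs. They were chosen by name: the symbol is PSM, a letter from A to G and a number, and a normalized count of at least 10 was required in at least 4 of the 8 libraries. PSMB8 and PSMB9, interferon-inducible catalytic subunits, were left out. A normalized count is a read count divided by a size factor of its library. Among 14718 listed genes, 40 carried such a name, and all 40 met the minimum, as did 11660 genes in all. The mutant group held 4 pigs, numbered 6 to 9 in the labels. Pigs 6, 7 and 8 (mutant replicates 1 to 3) carried the label KCNH2 mutation, and pig 9 (mutant replicate 4) the label KCNH3 mutation. KCNH2 is the only gene named in the design text. The WT group held pigs 1, 2, 4 and 5, called WT replicates 1 to 4. The labels give neither the alleles, their copy number, nor the age, sex, litter or time of sampling of the pigs, and replicate numbers only name libraries.

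The complete proteasome joins a barrel, the 20S core, to a cap, the 19S regulator. The core is built of rings of alpha subunits (PSMA genes), which gate the barrel, around rings of beta subunits (PSMB genes), some of which carry the proteolytic sites. The base of the cap holds a ring of ATPases (PSMC genes) that unfolds substrates, and the rest of the cap (PSMD genes) binds ubiquitin chains and removes them. PSME genes encode other activators of the core, PSMF1 an inhibitor, and PSMG genes, with PSMD5, PSMD9 and PSMD10, factors that help the particle to assemble and are not part of it. When proteasome activity is short, the transcription factor NFE2L1 is known to raise the transcription of most subunit genes together. Degradation by the proteasome is part of how heart muscle turns over sarcomere and channel proteins, and KCNH2 proteins that fold badly are removed in this way.

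The libraries differed in composition and depth. Mitochondrially encoded genes took 27.5%, 19.9%, 16.7% and 15.9% of the reads of mutant replicates 1 to 4, against 33.5%, 31.7%, 87.9% and 65.2% of those of WT replicates 1 to 4. Nuclear genes kept 12.7 to 16.2 M reads in mutant libraries and 11.5 to 12.9 M in WT replicates 1 and 2. For WT replicate 3 this was 2.53 M and for WT replicate 4 it was 7.53 M. A proteasome gene had a median of 1318.5 to 1686.5 reads in mutant libraries, against 184.5 in WT replicate 3 and 632.5 to 1585.5 in the other WT libraries. KCNH2 itself had 798, 1762, 1751 and 1839 normalized counts in mutant replicates 1 to 4 and 989, 559, 1909 and 148 in WT replicates 1 to 4, which overlap, and a gene count does not show an edited sequence. Heart muscle markers were abundant in all libraries. All 10 listed were measured, none was at 0 in any library, 8 were higher in mutant libraries, and their summed level was 767662 to 984625 normalized counts in mutant and 476358 to 728928 in WT libraries, without overlap. For the other 7 marker lists (endothelium, fibroblasts, smooth muscle and pericytes, macrophages, neutrophils, lymphocytes and red cells) the summed levels of the groups overlapped. Whether the muscle markers or the mitochondrial share play a part in any difference below was not tested. In such tissue RNA, fewer cells of a type and less RNA per cell cannot be told apart. In the pig RefSeq annotation (Sscrofa11.1) 9 of the 40 genes, PSMA3, PSMA7, PSMC1, PSMC5, PSMD1, PSMD6, PSMD10, PSMD14 and PSME1, overlap another gene between start and end. Without strand-specific counting, reads from sequence that both genes share cannot be told apart. Exons and strands were not compared, so how many reads this concerns is not known.

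The proteasome genes differed in both directions between the genotypes. Their median log2 difference, mutant minus WT, was -0.0059 with 19 genes higher and 21 lower, beside a median of 0.12 over all 11660 genes, of which 56.9% were higher. All 40 differences lay between -0.90, for the activator gene PSME2, and 0.82, for the assembly factor gene PSMD5, and so under 1 in size, as did 79% of all genes. Under 0.5 in size were 32 of the 40 differences (80%), beside 52.3% of all genes and 58.9% of the genes with at least 100 normalized counts in at least 4 libraries. The values come from limma on log2(normalized count + 1), a scale that understates the change of low genes. In other fits, given below, PSME2 differed by more than 1 in size. No proteasome gene and no gene at all passed at an adjusted p under 0.05 (0% of 11660).

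An unadjusted p under 0.05 was reached by 8 of the 40 genes (20%), beside 13.9% of all genes. Lower in mutant ventricles were 6 of these (15%, beside 6.8% of all genes), namely PSMC3, PSMC5, PSMA6, PSMB10, PSME1 and PSMG1. Higher were 2 (5%, beside 7.06%), PSMD1 and PSMD5. For 5 of the 6 lower genes, all but PSMC5, every mutant value lay below every WT value, which is 12.5% of the proteasome genes beside 5.22% of all genes. No proteasome gene had all mutant values above all WT values (6.17% of all genes did). For 27 of the 40 genes (67.5%, beside 25.4% of all genes) the 95% interval of the difference stayed within 1 of 0 on the log2 scale, so that a doubling or a halving lay outside it. The proteasome genes are also more highly expressed than most, with a median over genes of 1033 normalized counts, against 294 for all genes tested, and these shares were not adjusted for that.

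Both counts depended on single libraries. With 1 library left out, 0 to 2 of the 40 genes were higher and 1 to 5 lower at an unadjusted p under 0.05. The higher count was 0 without WT replicate 3 or 4 or mutant replicate 1, 3 or 4, and 1 without WT replicate 2. The lower count was 3 without WT replicate 1 or mutant replicate 3, 2 without WT replicate 2 or mutant replicate 1, and 1 without mutant replicate 4. Over all 11660 genes, 1616 had such a p-value in either direction with all libraries. That count was 921 without mutant replicate 4, 1040 without mutant replicate 3, 1215 without mutant replicate 1 and 1292 without mutant replicate 2. It was 2192 without WT replicate 1 and 1686 to 1824 without another WT library. Without mutant replicate 4, the pig labelled KCNH3, the 8 genes kept their direction, at -0.80 for PSMC3, -0.69 for PSMC5, -0.48 for PSMA6, -0.68 for PSMB10, -0.44 for PSME1, -0.55 for PSMG1, 0.51 for PSMD1 and 0.71 for PSMD5. Leaving out WT replicate 1, the groups did not overlap for 10 of 40 genes (25%), beside 20.4% of all genes. Leaving out mutant replicate 2, this held for 9 (22.5%), beside 16.3%. With the 2 WT libraries of high mitochondrial share, replicates 3 and 4, left out, it held for 14 (35%), beside 29.2%, of which 11 were lower in mutant ventricles (27.5%, beside 14%). Fewer libraries make it easier for groups not to overlap, for these genes as for all others.

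**Figure D1:**
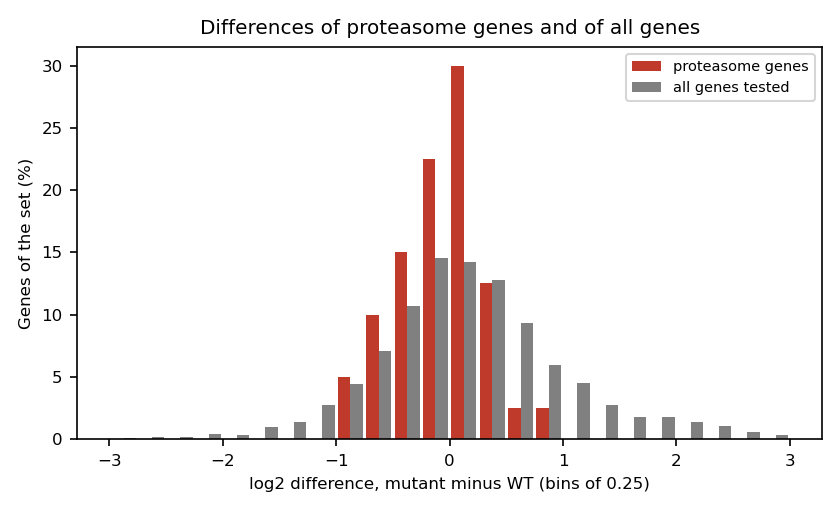
Share of genes (%, vertical axis) by log2 difference, mutant minus WT (horizontal axis, bins of 0.25, drawn from -3 to 3), for the 40 proteasome genes (red) and for all 11660 genes tested (grey). The proteasome genes form a narrower hump, all within -0.90 to 0.82, while 5% of all genes lie above 1.81.

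**Figure D2:**
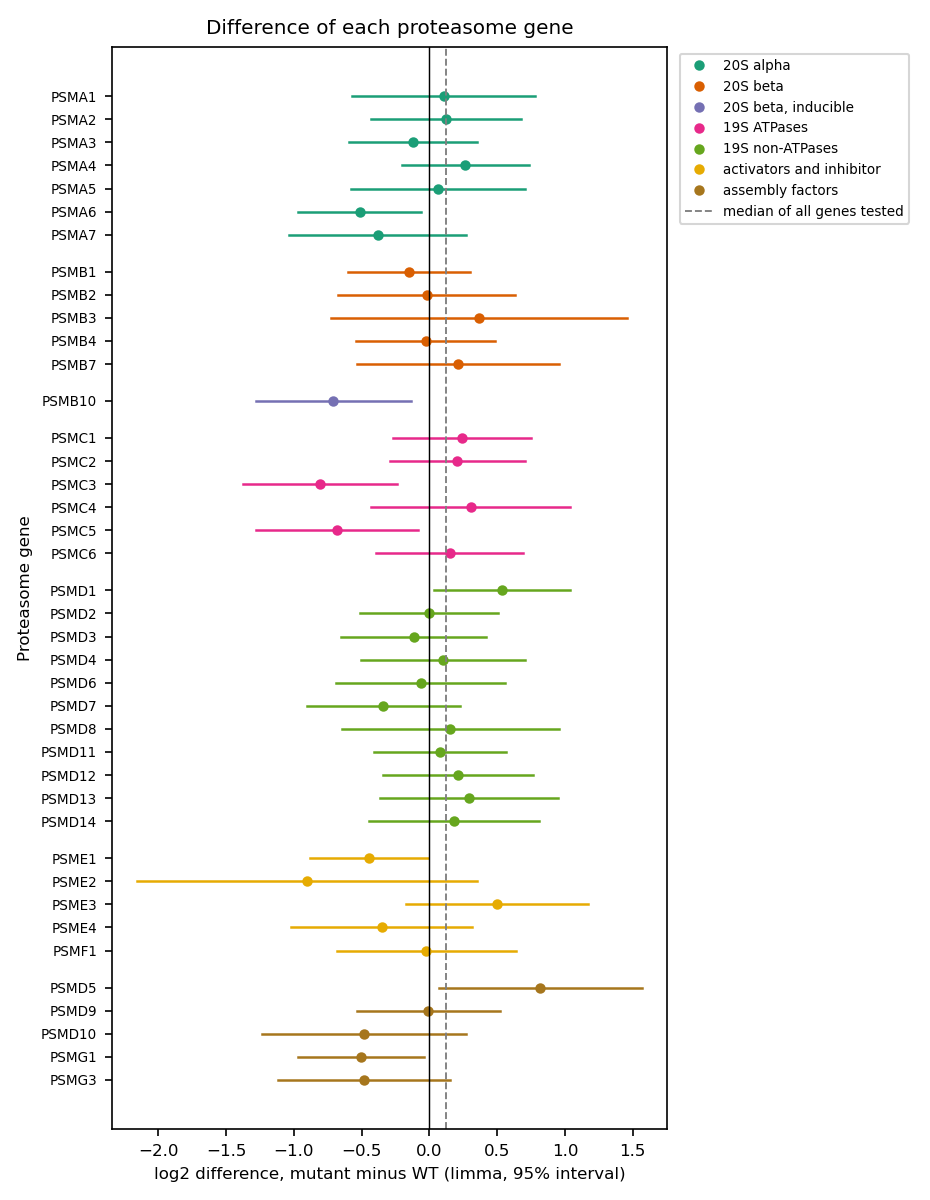
The log2 difference, mutant minus WT (horizontal axis), of each of the 40 proteasome genes with its 95% interval from limma (points and lines), coloured by role. The intervals of PSMA6, PSMB10, PSMC3, PSMC5, PSME1 and PSMG1 lie below 0, those of PSMD1 and PSMD5 above it, and the other 32 include 0; the dashed line is the median of all genes, 0.12.

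In the gate-forming alpha ring, 4 of 7 genes were higher and 3 lower in mutant ventricles, with a median log2 difference of 0.06. PSMA6 had 1172, 1595, 1364 and 1244 normalized counts in mutant replicates 1 to 4, against 1883, 1982, 1705 and 2066 in WT replicates 1 to 4. No mutant library reached the lowest WT library, replicate 3. The difference was -0.51 ± 0.20 (SE, n = 4 against 4), with a 95% interval of -0.97 to -0.06 (limma adjusted p = 0.318; exact permutation p = 0.0286). PSMA7, the alpha gene with the highest normalized counts, had 1305, 2446, 2697 and 2371 in mutant replicates 1 to 4 and 3276, 3022, 2010.5 and 2964 in WT replicates 1 to 4. Mutant replicate 1 was by far the lowest of the 8, WT replicate 3 lay among the mutant libraries, and the difference was -0.38 ± 0.29 (SE; limma adjusted p = 0.548), or -0.15 without mutant replicate 1. The other 5 alpha genes, PSMA1 to PSMA5, had differences of -0.12 to 0.26, and their groups overlapped. Against the other alpha genes of the same library, PSMA6 stood at a ratio of 0.170, 0.211, 0.164 and 0.151 in mutant replicates 1 to 4 and 0.196, 0.241, 0.216 and 0.288 in WT replicates 1 to 4. Such a ratio is free of the scaling between libraries but not corrected for gene length. Here mutant replicate 2 lay above WT replicate 1, so that the groups overlapped by this measure.

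The 5 beta genes of the standard core, PSMB1, PSMB2, PSMB3, PSMB4 and PSMB7, had a median log2 difference of -0.02, with 2 higher and 3 lower. The most abundant of them by normalized count, PSMB4, had 1557, 1716, 1750.4 and 1654 in mutant replicates 1 to 4 and 2339, 1787, 1444 and 1384 in WT replicates 1 to 4. The mutant values were close together and lay inside the WT range, and the difference was -0.03 (95% interval -0.54 to 0.49). PSMB4 encodes a structural subunit of the ring. PSMB1, also without a proteolytic site, had 1412, 1159.5, 1255 and 1205 in mutant replicates 1 to 4 and 1459.8, 1164, 1395 and 1579.6 in WT replicates 1 to 4. Its groups overlapped, with a difference of -0.15 ± 0.20 (SE). PSMB3, another subunit with no proteolytic site, had the widest WT range of all 40 genes on the log2 scale, 2.35. It had 485, 974, 1093 and 1114 in mutant replicates 1 to 4 and 1336, 886, 262 and 672 in WT replicates 1 to 4. Its lowest value, in WT replicate 3, rested on 54 reads, and its difference of 0.37 ± 0.49 (SE) was -0.09 without that library. PSMB7, which carries a proteolytic site of the standard core, had a difference of 0.21 (95% interval -0.53 to 0.96). PSMB5 and PSMB6, the genes of the other proteolytic subunits, were not among the listed genes under these symbols, so they were not analysed here.

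PSMB10 takes the place of PSMB7 in the immunoproteasome, the form of the core that cells make under interferon. It had 213, 252, 245 and 216 normalized counts in mutant replicates 1 to 4, against 482, 285, 465 and 318 in WT replicates 1 to 4. The mutant values were tightly grouped below all WT values, and WT replicate 2 came nearest to them. PSMB10 averaged 231 ± 19.97 in mutant and 388 ± 101 in WT libraries (SD, n = 4 each). On the log2 scale this was -0.71 ± 0.26 (SE; 95% interval -1.28 to -0.14; limma adjusted p = 0.292; exact permutation p = 0.0286). Set against PSMB7 within each library, PSMB10 stood at 0.269, 0.265, 0.243 and 0.228 in mutant replicates 1 to 4 and 0.354, 0.335, 0.575 and 0.757 in WT replicates 1 to 4, again without overlap. This ratio, like that of PSMA6 above, was chosen after the values were seen and is given with no test. The immunoproteasome partners PSMB8 and PSMB9, which do not belong to the 40, behaved less evenly. PSMB8 had 373, 182, 203 and 187 normalized counts in mutant replicates 1 to 4 and 429.9, 456, 43.6 and 975 in WT replicates 1 to 4. PSMB9 had 202, 39.5, 97.2 and 69.5 in mutant replicates 1 to 4 and 332, 231, 0 and 339.7 in WT replicates 1 to 4. WT replicate 3, with 9 reads of PSMB8 and 0 of PSMB9 (a count of 0 allows up to 3 reads), did not follow the other WT libraries, whereas PSMB10 was high there, from 96 reads.

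The 6 ATPases of the cap form a ring with 1 copy of each. Of their genes, 4 were higher and 2, PSMC3 and PSMC5, lower in mutant ventricles, with a median log2 difference of 0.18. PSMC3 had 1692, 2580, 2228 and 2079 normalized counts in mutant replicates 1 to 4, against 2622, 3825, 4515 and 4183 in WT replicates 1 to 4. The groups did not overlap, although mutant replicate 2 came close to WT replicate 1. Means were 2145 ± 368 in mutant and 3786 ± 826 in WT libraries (SD, n = 4), and the log2 difference was -0.81 ± 0.25 (SE; 95% interval -1.37 to -0.24). This was the smallest limma p of the 40 genes (adjusted p = 0.258). Permuting the libraries over all 70 assignments gave an exact p of 0.0286 (2-sided), the lowest value this design can give, here and wherever it is printed. Every gene whose groups do not overlap has this value. It therefore restates the lack of overlap and is not a separate test of it. PSMC5 had 1693, 2810, 2635 and 2368 in mutant replicates 1 to 4 and 2723, 3748, 3992 and 4836 in WT replicates 1 to 4. Here WT replicate 1 lay below mutant replicate 2, and the difference was -0.68 ± 0.27 (SE; limma adjusted p = 0.314; exact permutation p = 0.0571). Its annotated pig gene overlaps FTSJ3.

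The differences of the other 4 ATPase genes were 0.24 for PSMC1, 0.21 for PSMC2, 0.30 for PSMC4 and 0.15 for PSMC6, each with an interval that includes 0 and groups that overlap. Grouped in this way after the values were seen, and with no test, the summed PSMC3 and PSMC5 counts stood to the summed counts of the other 4 within each library at 0.670, 0.985, 0.769 and 0.728 in mutant replicates 1 to 4. In WT replicates 1 to 4 the ratio was 0.796, 1.47, 1.95 and 2.34. WT replicate 1 thus lay within the mutant range, and the other WT libraries lay above it, highest in replicates 3 and 4, which also had the highest mitochondrial shares. Without these 2 libraries the difference was -0.58 for PSMC3 and -0.45 for PSMC5. Those of PSMC4 and PSMC6 were then -0.14 and -0.17, in the same direction as PSMC3 and PSMC5. PSMC1 and PSMC2 stayed on the higher side, at 0.09 and 0.03.

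**Figure D3:**
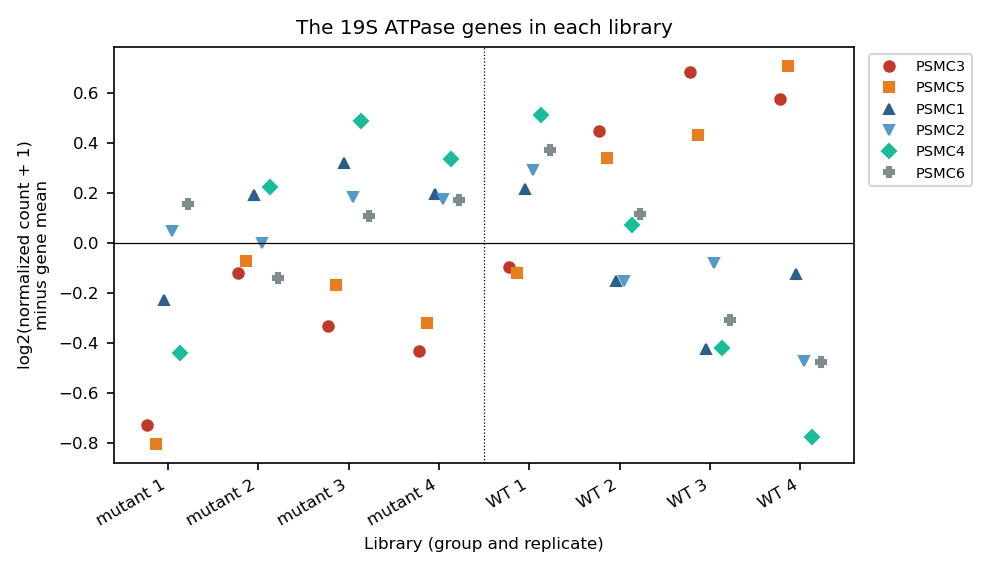
log2(normalized count + 1) of the 6 ATPase genes of the 19S cap, each minus its mean over the 8 libraries (vertical axis), by library (horizontal axis, mutant left of the dotted line and WT right of it). PSMC3 (red circles) and PSMC5 (orange squares) lie below their means in all 4 mutant libraries and in WT replicate 1 and above them in WT replicates 2 to 4, where PSMC4 (green diamonds) is lowest in replicate 4.

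In the authors' deposited table, which holds a DESeq2 comparison per the submitters' processing notes, PSMC3 was the 1 proteasome gene of 40 with an adjusted p under 0.05 (log2 fold change -0.82, adjusted p = 0.0484). That is 2.5% of the proteasome genes, beside 4.54% of the 12763 genes with an adjusted p in that table (3.23% in the lower direction). At an adjusted p under 0.01 the authors' deposited table called 0 of the 40, beside 1.57% of genes. DESeq2 on the recovered reads also called PSMC3 alone (adjusted p = 0.0482), beside 4.56% of genes, and 9 of the 40 had an unadjusted p under 0.05 (22.5%, beside 18.5%). The edgeR fit called 0 of the 40 and 0 genes in all (adjusted p of PSMC3 = 0.233), and 7 of the 40 had an unadjusted p under 0.05 (17.5%, beside 14.7%). The DESeq2 call was lost without any 1 of WT replicates 2, 3 and 4 or of the mutant replicates (adjusted p = 0.0690 to 0.2505). Without WT replicate 1 it held (adjusted p = 0.00503), and PSMC5 was then called too (adjusted p = 0.0481). The DESeq2 calls over all genes moved as well. They numbered 582 with all libraries, 1027 without WT replicate 1, 510 to 705 without another WT library and 128 to 370 without a mutant library.

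Of the 11 other cap genes, 7 were higher and 4 lower in mutant ventricles, with a median of 0.10. PSMD1 encodes a large scaffold subunit of the base. It had 1404, 1137, 1479 and 1432 normalized counts in mutant replicates 1 to 4, against 1199, 975, 901 and 727 in WT replicates 1 to 4. Only mutant replicate 2 lay below a WT library, replicate 1. The difference was 0.54 ± 0.22 (SE; 95% interval 0.03 to 1.04; limma adjusted p = 0.330; exact permutation p = 0.0571), and 0.33 without WT replicates 3 and 4. PSMD2, the companion scaffold of the base, had 2068, 2257, 2589 and 2702 in mutant replicates 1 to 4 and 2033, 2055, 2592 and 3044 in WT replicates 1 to 4. These groups covered nearly the same range, and the difference was -0.0034 (95% interval -0.51 to 0.51).

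PSMD14 is the deubiquitinase of the cap and PSMD7 its partner. PSMD7 had 890.0, 860.3, 801 and 877 in mutant replicates 1 to 4 and 892, 886, 1715 and 1020.3 in WT replicates 1 to 4. Only WT replicate 3 stood clearly apart, and the difference of -0.34 ± 0.25 (SE) was -0.12 without that library. PSMD14 had a difference of 0.18 (95% interval -0.45 to 0.81). The ubiquitin receptor gene PSMD4 had one of 0.10 (95% interval -0.50 to 0.70). The other 6 scaffold and lid genes, PSMD3, PSMD6, PSMD8, PSMD11, PSMD12 and PSMD13, had differences of -0.12 to 0.29, and none had groups that did not overlap.

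Among activators and the inhibitor, 1 of 5 genes was higher and 4 were lower, with a median of -0.35. PSME1 and PSME2 encode the subunits of the interferon-inducible 11S activator, which caps the core without ATP. PSME1 had 1305, 1355, 1384 and 1318 normalized counts in mutant replicates 1 to 4, against 2000.1, 1756, 1565 and 2018 in WT replicates 1 to 4. The mutant libraries spanned a narrow range below all WT libraries, with an SD of 36.1 around 1340.4 against 216 around 1835 in WT (n = 4). The difference was -0.45 ± 0.19 (SE; 95% interval -0.88 to -0.0096; limma adjusted p = 0.348; exact permutation p = 0.0286). PSME2, the least abundant of the 40 by normalized count, had 44.0, 59.2, 75.1 and 81.4 in mutant replicates 1 to 4 and 224, 199, 43.6 and 103 in WT replicates 1 to 4. WT replicate 3 held 9 reads and was the lowest of the 8 libraries. The difference of -0.90 ± 0.56 (SE; limma adjusted p = 0.472) was -1.72 without WT replicates 3 and 4 (limma adjusted p = 0.130). With all libraries it was -1.16 in the authors' deposited table (adjusted p = 0.181). DESeq2 on the recovered reads gave -1.16 (adjusted p = 0.181) and edgeR -1.14 (adjusted p = 0.344). Without WT replicate 3, DESeq2 called PSME2, among 588 genes in all.

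PSME3 encodes a nuclear relative of these activators and did not share their direction. It had 723, 781, 989 and 1044 in mutant replicates 1 to 4 and 811, 916, 426 and 463 in WT replicates 1 to 4. WT replicates 1 and 2 lay within the mutant range and WT replicates 3 and 4 below it. The difference was 0.50 ± 0.30 (SE; limma adjusted p = 0.464) with all libraries and 0.02 without WT replicates 3 and 4. PSME4, which encodes a large single-chain activator, had 1787, 1377, 1226 and 1168 in mutant replicates 1 to 4 and 1356, 1548, 1473 and 3035 in WT replicates 1 to 4. Its difference of -0.35 ± 0.30 (SE) was -0.09 without WT replicate 4. The inhibitor gene PSMF1 was at 529 to 620.1 in 6 libraries but had 988 in mutant replicate 1 and 985 in WT replicate 4, and its difference was -0.02 (95% interval -0.68 to 0.64).

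Of the 5 assembly factor genes 4 were lower and 1 higher, with a median of -0.48. PSMG1 encodes a chaperone of the alpha ring. It had 392, 526, 526 and 538 normalized counts in mutant replicates 1 to 4, against 770.0, 714, 722 and 597 in WT replicates 1 to 4. No mutant library reached the lowest WT library, replicate 4, and the difference was -0.50 ± 0.21 (SE; 95% interval -0.97 to -0.04; limma adjusted p = 0.328; exact permutation p = 0.0286). PSMG3, of a second such chaperone, had 126, 249, 225 and 209 in mutant replicates 1 to 4 and 288, 243, 252 and 320.3 in WT replicates 1 to 4. PSMG3 thus differed by -0.48 ± 0.28 (SE; limma adjusted p = 0.452), and its groups overlapped only through mutant replicate 2 and WT replicate 2.

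The factors that help to build the base went different ways. PSMD5 had 322, 251, 398 and 432 in mutant replicates 1 to 4, against 304, 203, 116 and 197 in WT replicates 1 to 4. Only WT replicate 1 lay within the mutant range, and the value of WT replicate 3 rested on 24 reads. Means were 350.4 ± 80.8 in mutant and 205 ± 77.1 in WT libraries (SD, n = 4), and the difference was 0.82 ± 0.33 (SE; 95% interval 0.07 to 1.57; limma adjusted p = 0.323). It was 0.46 without WT replicates 3 and 4. PSMD10, also known as gankyrin, had a difference of -0.48 ± 0.34 (SE), and PSMD9 one of -0.0083 (95% interval -0.54 to 0.52).

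**Figure D4:**
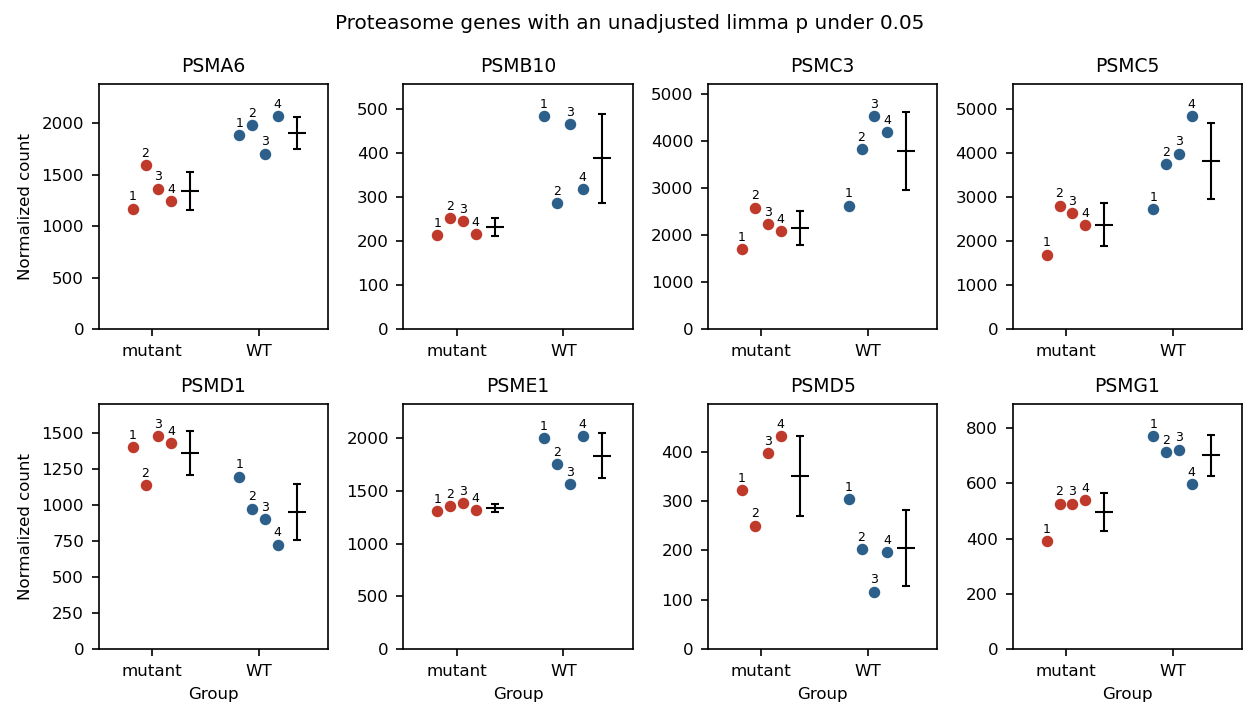
Normalized counts (vertical axes, from 0) of the 8 proteasome genes with an unadjusted limma p under 0.05, for mutant (red, left) and WT libraries (blue, right). Small numbers are replicates, and the black bars show the mean and SD of 4 libraries; the groups do not overlap for PSMA6, PSMB10, PSMC3, PSME1 and PSMG1.

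The 40 genes varied between pigs of the same group, and most so among WT pigs. The SD of log2 values within a group had a median over the genes of 0.21 in mutant and 0.39 in WT libraries, and it was larger in WT for 32 of the 40 (80%). The same held for all genes tested, at 0.33 in mutant and 0.70 in WT libraries, with 84.3% of genes more spread in WT. WT libraries held most of the extremes. WT replicate 1 had the highest value of the 8 libraries for 14 of the 40 genes and WT replicate 4 the lowest for 14, which is 35% each. Over all genes tested, WT replicate 1 was the highest for 11.9% and WT replicate 4 the lowest for 19.97%. WT replicate 3 was the highest for 7 of the 40 genes and the lowest for 7 others, beside 18.9% and 31.6% of all genes. Among mutant libraries, replicate 1 was the lowest of the 8 for 9 of the 40 (beside 14.9% of all genes). Replicates 2 to 4 were each the lowest for at most 2 (beside 3.63% to 6.12%). The mean over the 40 genes of the log2 value minus its gene mean was -0.18, -0.05, 0.08 and 0.04 in mutant replicates 1 to 4 and 0.25, 0.05, -0.05 and -0.14 in WT replicates 1 to 4. The groups overlapped in part, with mutant replicate 1 below every WT library and WT replicate 1 above every mutant library.

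The share of nuclear reads that fell on the 40 genes also overlapped between the groups. It was 0.400%, 0.458%, 0.486% and 0.478% in mutant replicates 1 to 4 and 0.510%, 0.486%, 0.383% and 0.513% in WT replicates 1 to 4. The Wilson 95% interval for WT replicate 3 was 0.376% to 0.391%, from 9718 reads, and those of the other libraries were narrower than that. Mutant replicate 1, like WT replicate 3, lay clearly below the rest, beyond counting error.

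**Figure D5:**
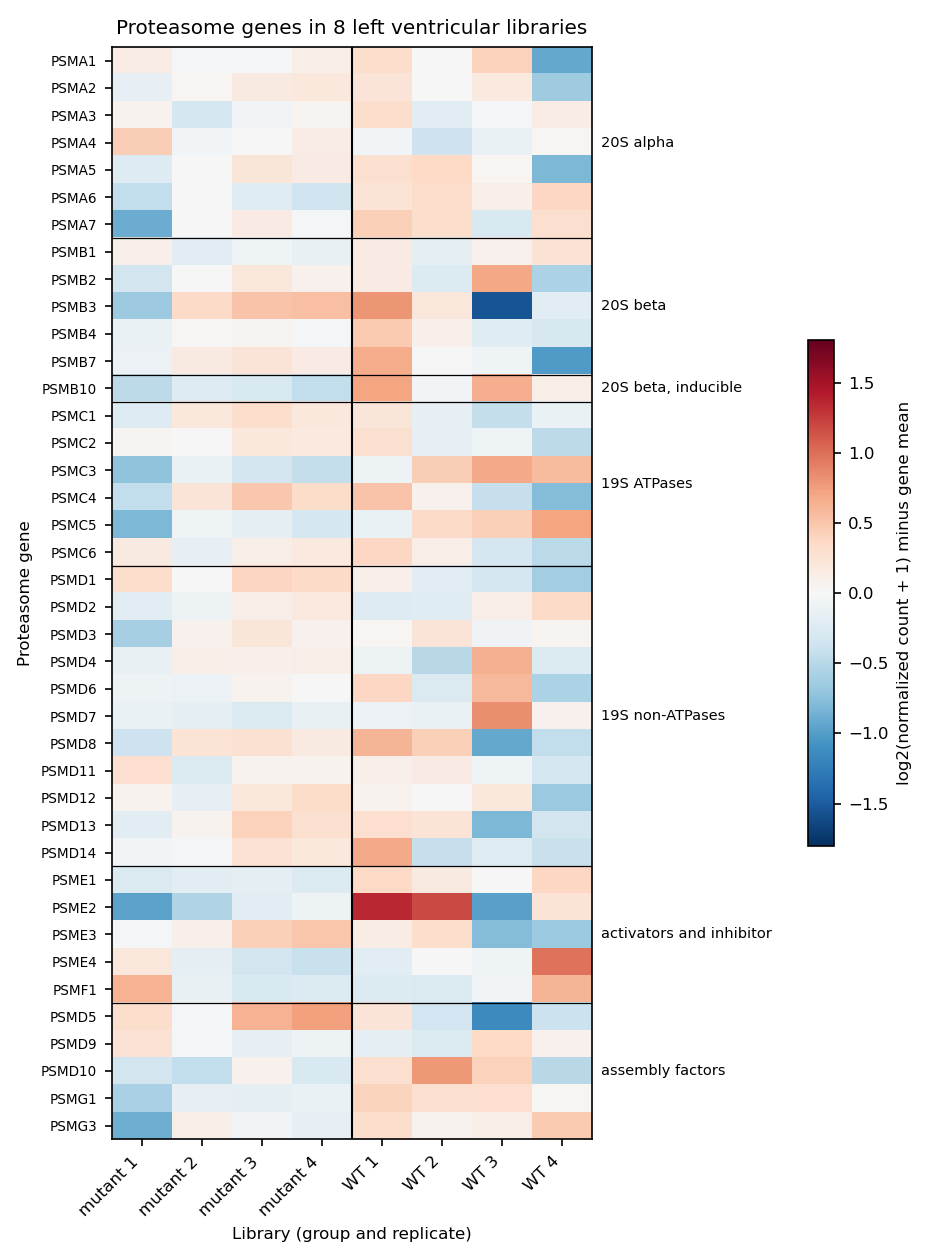
The 40 proteasome genes (rows, grouped by role) in the 8 libraries (columns, mutant left of the line and WT right of it), coloured by log2(normalized count + 1) minus the mean of the gene over the 8 libraries. Colours vary more in the WT columns, where WT replicate 1 is highest for 14 genes and WT replicate 4 lowest for 14. PSMB10 is blue (low) in all mutant columns, and PSME2 is the darkest red, in WT replicates 1 and 2.

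Genes that work beside the proteasome were taken from lists fixed with earlier results of these data known, and none passed limma over all genes. MAFF and UBQLN2 were called at an adjusted p under 0.05 in the authors' deposited table (adjusted p = 1.42e-06 for MAFF and 0.0292 for UBQLN2). Of 12 proteasome-associated genes 11 were measured, 3 higher and 8 lower in mutant ventricles, with a median of -0.07 and no unadjusted p under 0.05 (13.9% of all genes had one). The core maturation factor gene POMP had 1340.2, 1389.6, 1399 and 1500.4 normalized counts in mutant replicates 1 to 4, against 1948, 1701, 1875 and 1752 in WT replicates 1 to 4. The ubiquitin receptor gene ADRM1 had 496, 787, 804 and 719 in mutant replicates 1 to 4, against 926, 902, 1003 and 952 in WT replicates 1 to 4. Neither gene's groups overlapped, and the differences were -0.37 ± 0.19 for POMP and -0.45 ± 0.22 for ADRM1 (SE; limma adjusted p = 0.404 and 0.388). ZFAND5, which encodes a stress-induced stimulator of the proteasome, differed by -0.64 ± 0.30 (SE; limma adjusted p = 0.382).

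NFE2L1 had 4220.5, 3718, 2879 and 2921 normalized counts in mutant replicates 1 to 4 and 2698, 4367, 1719.8 and 4144 in WT replicates 1 to 4, which overlapped fully (difference 0.16 ± 0.33, SE). Of the 8 genes of its list 7 were measured, 2 higher and 5 lower, and 1 had an unadjusted p under 0.05, beside 13.9% of all genes. This was MAFF, of the small MAF partners of NFE2L1, with a difference of -2.56 ± 0.39 (SE; limma adjusted p = 0.142), while the other small MAF genes MAFG and MAFK differed by -0.50 and -0.18. NFE2L2, a relative of NFE2L1, differed by -0.66 ± 0.38 (SE).

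Of 14 listed genes that bring ubiquitin-tagged proteins to the proteasome, 13 were measured. In mutant ventricles 9 were higher (beside 56.9% of all genes) and 4 lower, with a median of 0.40 (beside 0.12). Unadjusted p-values under 0.05 came from 3 of the higher genes (beside 7.06% of all genes) and 2 of the lower genes (beside 6.8%). The shuttle factor gene UBQLN2 had 496, 403, 434 and 439.7 normalized counts in mutant replicates 1 to 4, against 182, 295, 121 and 82.5 in WT replicates 1 to 4. Every mutant library lay above every WT library, and the difference was 1.53 ± 0.38 (SE; limma adjusted p = 0.212; exact permutation p = 0.0286). The UBQLN2 values of WT replicates 3 and 4, the lowest, rested on 25 and 68 reads. UBXN1 and NPLOC4, cofactors of the segregase VCP, differed by -0.92 ± 0.27 and -0.59 ± 0.23 (SE). Without WT replicates 3 and 4 the median of this list was 0.10. Of 6 genes of ubiquitin and its activating enzymes 5 were measured, with a median of -0.43, and -0.07 without WT replicate 4. The ubiquitin gene UBB differed by -0.48 ± 0.28 (SE) and the activating enzyme gene UBA6 by 0.93 ± 0.46 (SE). UBA6 had only 8 reads in WT replicate 3.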

How the data were processed

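RNA-seq of left ventricle from 8 pigs was used; per the labels' protocols the RNA was poly(A)-selected, and strand-specific counting is not stated. The authors deposited 1 table of normalized counts (a signal: counts divided by 1 size factor per library), with their mean, log2 fold change (mutant over WT), its standard error in log2 units (an other value), Wald score and raw and adjusted p-values, per the file headers. The submitters' processing notes name DESeq2 and, for these pig samples, the human build GRCh38. The aligner, counter and gene models used upstream were not given in the sources used here. No coordinates are printed.

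Whole reads were recovered from the steps of the low values (100% of values came out whole within 1e-06 reads), 15.9 to 22.4 M per library. The 2 lines that name an annotation source instead of a gene (0.392% to 0.853% of reads) were left out. Intervals of shares (Wilson, 95%) cover counting error only. limma 3.58.1 (R 4.3.3; trended, robust prior) was fitted on log2(normalized count + 1) over 11660 genes with at least 10 in at least 4 libraries, with Benjamini-Hochberg adjustment over all of them; edgeR 4.0.16 and DESeq2 1.42.0 were run on the recovered reads. These fits were tested on simulated data, with seeded changes larger than any difference of the 40 genes and the same spread setting for every gene. That test does not cover differences as small as theirs. Nothing but the pig numbers says how the samples were taken, so p-values reflect only their spread, which may be partly technical. Of the 40 genes, all matched the pig RefSeq gene table (Sscrofa11.1), where 9 overlap another gene.

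The members and lists were chosen with earlier results of these data known. Values per library are given for the 2 genes with the smallest p and the gene with the highest mean of each role, for those whose groups do not overlap or that the authors' table calls, and for PSMB10 (16 genes). Other proteasome genes were named after their values were seen. Of each other list the 3 genes with the smallest p are named, except 1 that is not reported here.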

Additional observations from a re-analysis of the deposited data

Results flagged for a closer look

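In 80 groups of 4 libraries (40 genes, each in mutant and WT), a single library stood far from the other 3 in 5, by a gap to its neighbour that is larger, as a share of the group's whole log2 range, than Dixon's 95% critical value. Among independent groups of normally distributed values, about 1 in 20 would be flagged. The 40 genes share the same 8 libraries, so the 5 flags cannot be judged by that rate. Mutant replicate 1 was the library in 4 of the 5. It was the lowest mutant library for PSMB3 (485 normalized counts, against 974 to 1114 in the other mutant libraries), for PSMD4 (456, against 531 to 541) and for PSMG1 (392, against 526 to 538). For the inhibitor gene PSMF1 it was the highest (988, against 529 to 585). In WT libraries, PSME4 stood out in replicate 4 (3035, against 1356 to 1548). Each of these values rested on at least 641 reads.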

How the results depend on the processing

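Of 16 named genes, 13 kept their direction under all alternatives run. PSMD2 differed by 0.035 after TMM rescaling, 0.017 after quantile rescaling, 0.25 with array quality weights and 0.23 without WT replicates 3 and 4. PSMB4 differed by 0.011 and 0.037 after TMM and quantile rescaling, and PSMB3 by -0.32 without WT replicates 3 and 4. With 1 library left out, PSMD2 ranged from -0.082 to 0.11, PSMB4 from -0.13 to 0.13 and PSMB3 from -0.089 to 0.69.

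DESeq2 called 1 proteasome gene and 582 genes in all. With 1 library left out it called 0 to 2 proteasome genes and 128 to 1027 genes in all (an alternative added after seeing the data). Array quality weights called 92 genes, quantile rescaling 3, and leaving out WT replicates 3 and 4 12, none of them among the 40; with 1 library left out limma called 0 to 3 genes in all and 0 of the 40. The authors' deposited table gave 0 of the 40 an adjusted p under 0.01.

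After quantile rescaling, 2 proteasome genes were lower and 2 higher at an unadjusted p under 0.05. Over all genes 1900 then had such a p-value in either direction, against 1616 without that rescaling. Proteasome genes with groups that do not overlap numbered 3 after it, with no share of all genes at hand. Without WT replicates 3 and 4 they numbered 14 (35%, beside 29.2% of all genes). With 1 library left out they numbered 5 to 10, the most without WT replicate 1 (25%, beside 20.4% of all genes) and 9 without mutant replicate 2 (22.5%, beside 16.3%). Without WT replicates 3 and 4, medians were -0.12 for alpha genes, -0.16 for ATPases, -0.081 for activators and the inhibitor, 0.10 for substrate delivery and -0.12 for ubiquitin and its activating enzymes. With array quality weights, assembly factors had a median of -0.30, proteasome-associated genes -0.20, and ubiquitin and its enzymes -0.084. Proteasome-associated genes had -0.30 in DESeq2 and -0.29 in edgeR. The median of all genes was 0.12 in limma, -0.03 in DESeq2 and -0.02 in edgeR, and 0.01 without WT replicates 3 and 4. Causes were not tested.

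With 1 library left out, medians ranged from -0.19 to 0.17 for alpha genes, -0.44 to -0.089 for activators, -0.54 to -0.27 for assembly factors, -0.28 to -0.0073 for proteasome-associated genes, 0.19 to 0.58 for substrate delivery and -0.53 to -0.068 for ubiquitin and its enzymes. Promoter motifs were not run, as no promoter sequences were at hand. No paired analysis was possible because the labels number the pigs separately, with no number shared between groups. Depth limits WT replicate 3 most, where a proteasome gene had as few as 9 reads.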
